A study of Mus musculus with 8 samples.

Results

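The unfolded protein response and the integrated stress response were followed through 39 genes in epididymal white adipose tissue, the visceral fat pad beside the epididymis, of Rev-erb alpha knockout and wild-type mice. A member is a listed gene whose symbol is the only one that the platform annotation gives to a row of the expression table. All 39 listed genes were found, each with 1 row, among 19310 genes measured. They were described as 13 chaperones and folding enzymes of the endoplasmic reticulum (ER), 11 genes of the XBP1 and ATF6 branch and 15 genes of the ATF4 branch.

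Whole-transcript Affymetrix arrays were run on total RNA of 8 samples, 4 labelled wild type and 4 labelled Rev-erb alpha KO. Both groups were male C57BL/6 mice of 12 to 15 weeks on a standard diet in cycles of 12 h light and 12 h dark. Tissue was taken at Zeitgeber time 10, which is counted in hours after lights on. Neither the allele nor whether a sample is 1 mouse or a pool is stated in the labels, so the p-values speak only to the scatter among these 8 samples, which may be technical.

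The values are log2 expression values, so a difference of 1 is a doubling. Array medians lay between 5.90 and 5.95. The first principal component over the rows with exactly 1 gene symbol (43.2% of the variance) separated the groups. The second (14.7%) set knockout-labelled arrays 1 and 2 apart from arrays 3 and 4. The row of Nr1d1, which encodes Rev-erb alpha, read 9.11 to 9.83 in wild type and 8.80 to 9.56 in the other group (limma adjusted p = 0.479). The labels and annotation do not say which part of the transcript that row reads, so it cannot check the deletion, and the arrays are called knockout-labelled. Arntl, a clock gene that Rev-erb alpha represses, read 4.80 to 5.19 in wild type and 6.65 to 6.95 in the knockout-labelled arrays. The 9 measured adipocyte markers averaged between 9.53 (Slc2a4) and 12.48 (Fabp4) in wild type. Levels of different array rows cannot be ranked against each other, so the table cannot show that another cell type is absent. Of the 8 measured markers of epididymal epithelium, 0 passed in limma (adjusted p under 0.05), where 7.5% of all genes did. An unadjusted limma p under 0.05 was found for 1 of them, and over all 19310 genes for 1967 higher and 2249 lower. With so few markers these counts cannot decide whether that tissue was present.

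Proteins that enter the secretory pathway fold in the ER with the help of chaperones. When unfolded protein builds up there, 3 sensors in the ER membrane respond: IRE1, encoded by Ern1, splices the Xbp1 messenger RNA into the form that makes an active transcription factor, ATF6 is cut to release a transcription factor, and PERK, encoded by Eif2ak3, phosphorylates the initiation factor eIF2. Phosphorylated eIF2 slows translation in general while ATF4 is translated more, and because other kinases that sense amino acid shortage, haem shortage or double-stranded RNA act on the same factor, this arm is called the integrated stress response. Adipocytes secrete adipokines in large amounts and depend on ER folding for it.

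The promoters of these genes carry known response elements, which are shown first because they set the chaperones apart from the ATF4 targets by sequence. The ER stress response element (ERSE), bound by ATF6 or XBP1 together with NF-Y, was searched as CCAAT, any 9 bases, then CCACG. The RefSeq promoter table (GRCm38.p6, 250 bases before to 50 after each transcript start) held promoters for 35 of the 39 members, 38 promoters in all. The ERSE letters, searched on both strands, stood in those of 7 of 11 chaperone genes with a promoter, 2 of 9 genes of the XBP1 and ATF6 branch and 0 of 15 genes of the ATF4 branch. Of all 27025 genes with a promoter 0.137% held them, and of all 32851 promoters 0.119%. Examples follow, written 5′ to 3′ along the gene's own strand, with the ERSE in capitals. In Calr the match is on the other strand, so that the capitals read as its reverse complement.
Hspa5, chr2:34772005-34772063 (plus strand): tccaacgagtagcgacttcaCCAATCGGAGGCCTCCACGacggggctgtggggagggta
Dnajc3, chr14:118937807-118937865 (plus strand): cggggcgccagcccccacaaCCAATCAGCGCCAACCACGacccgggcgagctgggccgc
Pdia6, chr12:17266471-17266529 (plus strand): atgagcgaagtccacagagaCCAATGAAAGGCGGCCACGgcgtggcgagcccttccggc
Canx, chr11:50325780-50325838 (minus strand): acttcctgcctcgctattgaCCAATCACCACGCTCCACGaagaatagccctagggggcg
Calr, chr8:84847055-84847113 (minus strand): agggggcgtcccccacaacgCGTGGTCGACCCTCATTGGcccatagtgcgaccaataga
Syvn1, chr19:6046512-6046570 (plus strand): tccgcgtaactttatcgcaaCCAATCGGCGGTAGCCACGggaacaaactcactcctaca

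The element read by ATF4 with a partner of the C/EBP family (CARE) was searched as TGATGNAA. It stood in promoters of 4 of 15 ATF4-branch genes, Asns, Chac1, Nupr1 and Trib3, in Herpud1 of the XBP1 and ATF6 branch and in 0 of 11 chaperone genes. Of all genes with a promoter 4.51% held it, and of all promoters 3.97%. Asns and Nupr1 are printed with Chac1 because their values went apart, as described below. Capitals mark the CARE, which lies on the other strand in Nupr1 and Chac1.
Asns, chr6:7693210-7693252 (minus strand): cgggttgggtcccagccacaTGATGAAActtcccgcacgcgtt
Nupr1, chr7:126625553-126625600 (minus strand): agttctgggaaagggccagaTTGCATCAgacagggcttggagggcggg
Chac1, chr2:119351029-119351076 (plus strand): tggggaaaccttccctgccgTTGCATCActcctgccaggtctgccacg

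A related element, ERSE-II (ATTGG, any base, CCACG), stood in the promoters of Herpud1 and Dnajb11 (0.0365% of all promoters). The core of the XBP1 element UPRE (TGACGTGG, 0.676%) and an element of Rev-erb and ROR receptors (AA, any base, TAGGTCA, 0.219%) were in 0 of the 38 members' promoters, while 1 of 2 promoters of Arntl held the latter. None of these 5 sets of letters lay in the windows of Xbp1, Atf5 or Eif2ak3, which says nothing of sites elsewhere.

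Across the 39 members, 3 rose and 2 fell in the knockout-labelled tissue (limma, adjusted p under 0.05 over all rows with exactly 1 gene symbol). Nupr1, Atf5 and Eif2ak3 were higher, all in the ATF4 branch, and Xbp1 and Asns were lower. These 5 are 12.8% of the members. Of all genes, 7.5% were called, 3.89% higher and 3.61% lower, and no test of the list was made. The changes were small, none reaching 1.5-fold, and the median log2 fold change of the members was 0.022 against −0.0061 over all genes. In 10 members, 25.6%, the groups of arrays did not overlap, against 15.5% of all genes. In 5 of them the knockout-labelled arrays lay above (7.29% of all genes) and in 5 below (8.26%). In bulk tissue, fewer cells of a type and less RNA per cell cannot be told apart.

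**Figure D1:**
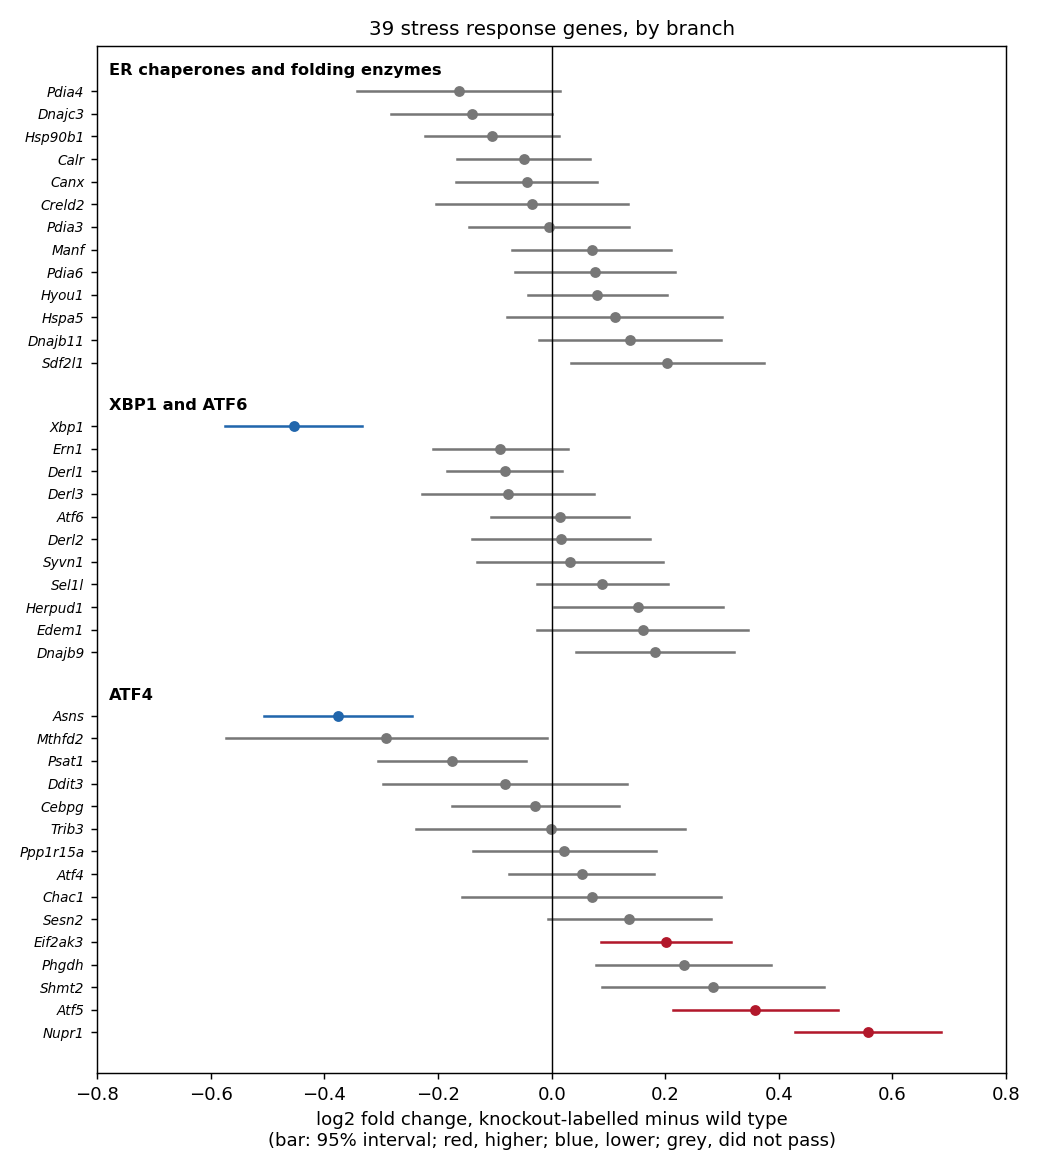
Log2 fold change of each of the 39 members (knockout-labelled minus wild type, horizontal axis) with its 95% interval, by branch, n = 4 arrays per group. Red points rose and blue points fell in the limma fit, and grey points did not pass; the chaperones lie between −0.16 and 0.20.

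Of the 13 chaperones and folding enzymes, 0 passed in either direction, where 7.5% of all genes did, so a list this short could hold few calls. An unadjusted limma p under 0.05 was found for 1 of them, and over all 19310 genes for 1967 higher and 2249 lower. Their log2 fold changes ran from −0.16 to 0.20 with a median of −0.0049, and 6 lay above 0 and 7 below. Taken one by one, the 95% intervals of the 13 reached from −0.34 to 0.37 at most. Those 9 members whose promoters hold the ERSE letters, 7 of them chaperones, had log2 fold changes from −0.14 to 0.11, and 0 of the 9 passed.

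Hspa5 encodes BiP, the main HSP70 chaperone of the ER and the usual readout of ER stress. It read 10.02, 10.20, 10.15 and 10.14 log2 in wild-type arrays 1 to 4 and 10.02, 10.23, 10.45 and 10.24 in the knockout-labelled arrays. Only knockout-labelled array 3 stood clearly above the wild-type range, and array 1 sat at its lower end. The log2 fold change was 0.11 (SE 0.085, 95% interval −0.08 to 0.30, limma adjusted p = 0.509).

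The smallest p-values among the chaperones belonged to Sdf2l1, Dnajc3, Pdia4 and Hsp90b1, and none of these passed. Sdf2l1, a BiP cofactor, read 6.78, 6.95, 6.70 and 6.92 in wild type and 6.91, 7.19, 7.05 and 7.00 in the knockout-labelled arrays (log2 fold change 0.20, SE 0.077, limma adjusted p = 0.149). Dnajc3, which encodes the co-chaperone p58IPK, read 8.73, 8.65, 8.62 and 8.64 against 8.40, 8.51, 8.67 and 8.51 (−0.14, SE 0.064, limma adjusted p = 0.233). In both genes 1 knockout-labelled array lay within the wild-type range. The values of Pdia4, a disulphide isomerase, were 9.36, 9.54, 9.37 and 9.46 in wild type and 9.44, 9.36, 9.11 and 9.17 in the knockout-labelled arrays (−0.16, SE 0.081, limma adjusted p = 0.273). Knockout-labelled arrays 3 and 4 were the low ones, and against wild type those 2 alone gave −0.29 (adjusted p = 0.0445), a fit of 2 arrays against 4. Hsp90b1, the ER member of the HSP90 family, read 9.95, 9.98, 10.05 and 10.00 in wild type and 9.96, 9.92, 9.82 and 9.85 in the knockout-labelled arrays (−0.11, SE 0.053, limma adjusted p = 0.284). The other 8, the lectin chaperones Calr and Canx, the isomerases Pdia3 and Pdia6, the HSP70 relative Hyou1, the BiP cofactor Dnajb11 and the secreted stress proteins Manf and Creld2, had log2 fold changes from −0.05 to 0.14 with limma adjusted p of 0.306 or more.

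Of the 11 genes of the XBP1 and ATF6 branch, 1 fell and 0 rose (9.09%, against 7.5% of all genes). The median log2 fold change was 0.017. The gene that fell was Xbp1 itself. Its values were 9.99, 9.97, 9.94 and 10.10 log2 in wild type and 9.48, 9.57, 9.58 and 9.56 in the knockout-labelled arrays. All 4 knockout-labelled arrays lay below all 4 wild-type arrays, with a gap far wider than the spread in either group. Mean levels were 10.00 ± 0.067 and 9.55 ± 0.048 (SD, n = 4 each), a 1.37-fold decrease (log2 fold change −0.45, SE 0.054, 95% interval −0.57 to −0.33, limma adjusted p = 0.00094). The call was kept with each array left out (adjusted p 0.00281 to 0.00453). The table has a single row for Xbp1, so the spliced and unspliced forms of its messenger RNA were not separated.

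Neither sensor of this branch, Ern1 nor Atf6, passed. Ern1, the kinase and nuclease that splices Xbp1, read 6.78, 6.67, 6.63 and 6.63 in wild type and 6.60, 6.59, 6.62 and 6.54 in the knockout-labelled arrays. Its groups just failed to overlap and the log2 fold change of −0.09 (SE 0.054) had a limma adjusted p of 0.372. Atf6 read 7.94, 7.94, 7.85 and 7.95 in wild type and 7.86, 7.95, 8.02 and 7.90 in the knockout-labelled arrays, a log2 fold change of 0.01 (95% interval −0.11 to 0.14, limma adjusted p = 0.913) whose sign turned when array 3 of either group was left out.

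Among genes that XBP1 and ATF6 are known to induce, 3 had the next smallest p-values, all above 0 and none past the threshold. Dnajb9, the BiP co-chaperone ERdj4 and a standard XBP1 target, read 8.72, 8.75, 8.59 and 8.86 in wild type and 8.91, 8.92, 8.96 and 8.86 in the knockout-labelled arrays. The groups did not overlap, though wild-type array 4 and knockout-labelled array 4 both read 8.86 (log2 fold change 0.18, SE 0.063, limma adjusted p = 0.113). Herpud1, which organizes the ubiquitin ligase complex of ER-associated degradation, read 8.99, 9.04, 8.96 and 8.89 in wild type and 9.15, 9.20, 8.96 and 9.20 in the knockout-labelled arrays. Here knockout-labelled array 3 alone stayed in the wild-type range (0.15, SE 0.067, limma adjusted p = 0.217). Edem1, a lectin that sends misfolded glycoproteins to degradation, read 9.20, 9.27, 9.22 and 9.28 in wild type and 9.19, 9.33, 9.62 and 9.47 in the knockout-labelled arrays (0.16, SE 0.084, limma adjusted p = 0.302). Its high values were those of arrays 3 and 4, which alone against wild type gave 0.30 (adjusted p = 0.0302). The remaining 5 members, Sel1l and the ligase Syvn1 of the degradation complex and the derlins Derl1, Derl2 and Derl3, had log2 fold changes from −0.08 to 0.09 and limma adjusted p of 0.334 or more.

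**Figure D2:**
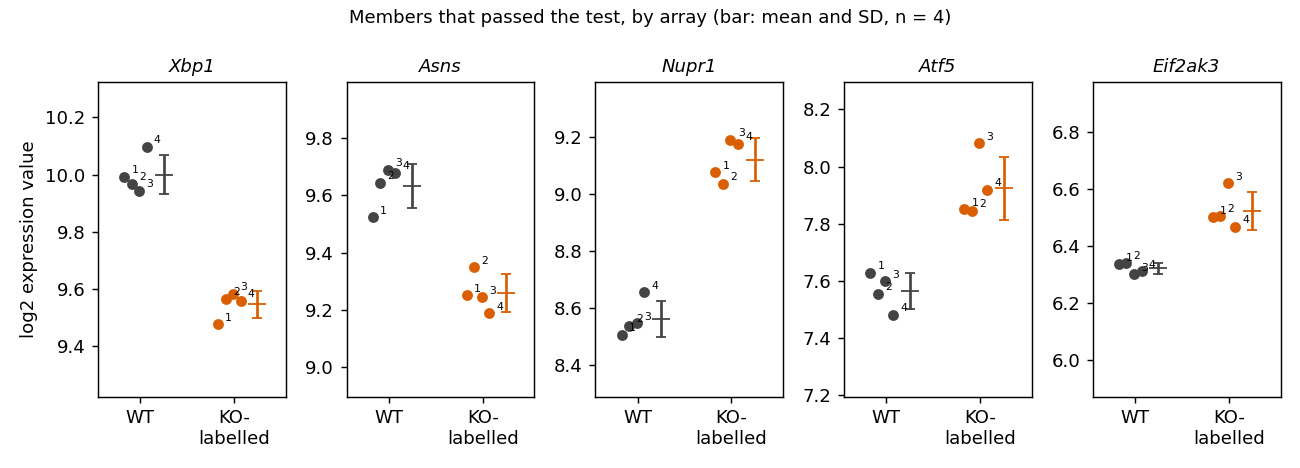
Log2 expression values of the 5 members that passed, by array (numbers beside points are replicate numbers), with the mean and SD of each group of 4 arrays. All panels span the same log2 range; in all 5 genes the knockout-labelled arrays lie wholly on one side of the wild-type arrays.

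The ATF4 branch held 4 of the 5 calls. Of its 15 genes 3 rose and 1 fell (26.7%, against 7.5% of all genes), and the median log2 fold change was 0.053. Nupr1, which encodes a small nuclear protein induced by amino acid shortage and other stresses, had the largest change of the 39. It read 8.51, 8.54, 8.55 and 8.66 log2 in wild type and 9.08, 9.04, 9.19 and 9.18 in the knockout-labelled arrays. The lowest knockout-labelled array was well above the highest wild-type array. Mean levels were 8.56 ± 0.065 and 9.12 ± 0.075 (SD, n = 4 each), a 1.47-fold increase (log2 fold change 0.56, SE 0.058, 95% interval 0.43 to 0.69, limma adjusted p = 0.000439).

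Asns, asparagine synthetase and the gene in which the amino acid response element was worked out, went the other way. It read 9.52, 9.64, 9.69 and 9.68 in wild type and 9.25, 9.35, 9.24 and 9.19 in the knockout-labelled arrays, without overlap. Mean levels were 9.63 ± 0.076 and 9.26 ± 0.067 (SD, n = 4 each), a 1.30-fold decrease (log2 fold change −0.38, SE 0.059, 95% interval −0.51 to −0.25, limma adjusted p = 0.00443). So the 2 called genes whose promoters hold the CARE letters, Asns and Nupr1, changed in opposite directions, and the other 3 holders, Chac1, Trib3 and Herpud1, did not pass. Chac1, a glutathione-degrading enzyme, had a log2 fold change of 0.07 (SE 0.10, limma adjusted p = 0.757), and Trib3, a pseudokinase and ATF4 target, one of −0.0018 (SE 0.11, limma adjusted p = 0.995).

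Atf5, a transcription factor related to ATF4, read 7.63, 7.55, 7.60 and 7.48 in wild type and 7.85, 7.85, 8.08 and 7.92 in the knockout-labelled arrays. All 4 knockout-labelled arrays were above the wild-type range, and array 3 was the highest. The mean went from 7.57 ± 0.063 to 7.92 ± 0.11 (SD, n = 4 each), a 1.28-fold increase (log2 fold change 0.36, SE 0.065, 95% interval 0.21 to 0.50, limma adjusted p = 0.00914). It did not pass with knockout-labelled arrays 1 and 2 alone (0.28, adjusted p = 0.0595). The calls of Nupr1, Asns and Atf5 were each kept with any single array left out, at adjusted p of 0.000911 to 0.00266, 0.00395 to 0.0179 and 0.0135 to 0.0313.

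Eif2ak3, the kinase PERK at the head of this arm, read 6.34, 6.34, 6.30 and 6.31 in wild type and 6.50, 6.51, 6.62 and 6.47 in the knockout-labelled arrays. The groups did not overlap, and the mean went from 6.32 ± 0.019 to 6.52 ± 0.066 (SD, n = 4 each). This 1.15-fold increase passed narrowly (log2 fold change 0.20, SE 0.052, 95% interval 0.09 to 0.32, limma adjusted p = 0.0416). Leaving out any single one of the 8 arrays ended the call (adjusted p 0.0627 to 0.1), with log2 fold changes of 0.17 to 0.22.

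Atf4 itself did not pass. Its values were 7.20, 7.27, 7.38 and 7.21 in wild type and 7.33, 7.29, 7.39 and 7.26 in the knockout-labelled arrays, overlapping throughout (log2 fold change 0.05, SE 0.058, 95% interval −0.08 to 0.18, limma adjusted p = 0.662). ATF4 is controlled largely at translation, which these arrays do not read. Ddit3 encodes CHOP, the transcription factor of prolonged ER stress, and read 6.80, 6.69, 6.67 and 6.71 in wild type and 6.37, 6.58, 6.91 and 6.67 in the knockout-labelled arrays. The knockout-labelled values lay on both sides of the wild-type range (−0.08, SE 0.097, limma adjusted p = 0.691), and the sign turned without knockout-labelled array 1. Ppp1r15a, the eIF2 phosphatase subunit GADD34 that ends the response, had a log2 fold change of 0.02 (SE 0.073, limma adjusted p = 0.902). Cebpg, a C/EBP family partner of ATF4, was at −0.03 (limma adjusted p = 0.856) and Sesn2, a stress-induced inhibitor of mTORC1 signalling, at 0.14 (limma adjusted p = 0.249).

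Serine and one-carbon genes, which ATF4 is known to induce together, did not lie on one side of 0. Of the 4, 0 passed, where 7.5% of all genes did, so a list this short could hold few calls. They are given gene by gene after their values were seen. Phgdh, the first enzyme of serine synthesis, read 8.98, 8.94, 9.18 and 9.14 in wild type and 9.40, 9.31, 9.24 and 9.22 in the knockout-labelled arrays (log2 fold change 0.23, SE 0.070, limma adjusted p = 0.0731). Psat1, the next enzyme of the same pathway, read 8.91, 8.98, 8.90 and 8.88 against 8.68, 8.68, 8.88 and 8.73 (−0.18, SE 0.059, limma adjusted p = 0.103). In both the groups did not overlap, Phgdh with the knockout-labelled arrays above and Psat1 with them below. For Psat1 this was only just so, as wild-type array 4 and knockout-labelled array 3 both read 8.88. Shmt2, the mitochondrial serine hydroxymethyltransferase, read 6.05, 6.28, 6.01 and 6.40 in wild type and 6.36, 6.50, 6.53 and 6.50 in the knockout-labelled arrays (0.28, SE 0.088, limma adjusted p = 0.0812). Mthfd2, the mitochondrial folate enzyme that follows it, read 6.01, 6.50, 6.13 and 5.87 against 5.61, 6.00, 5.87 and 5.87 (−0.29, SE 0.13, limma adjusted p = 0.214). Shmt2 passed without wild-type array 4 (adjusted p = 0.0357) and Psat1 without knockout-labelled array 3 (adjusted p = 0.0481).

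**Figure D3:**
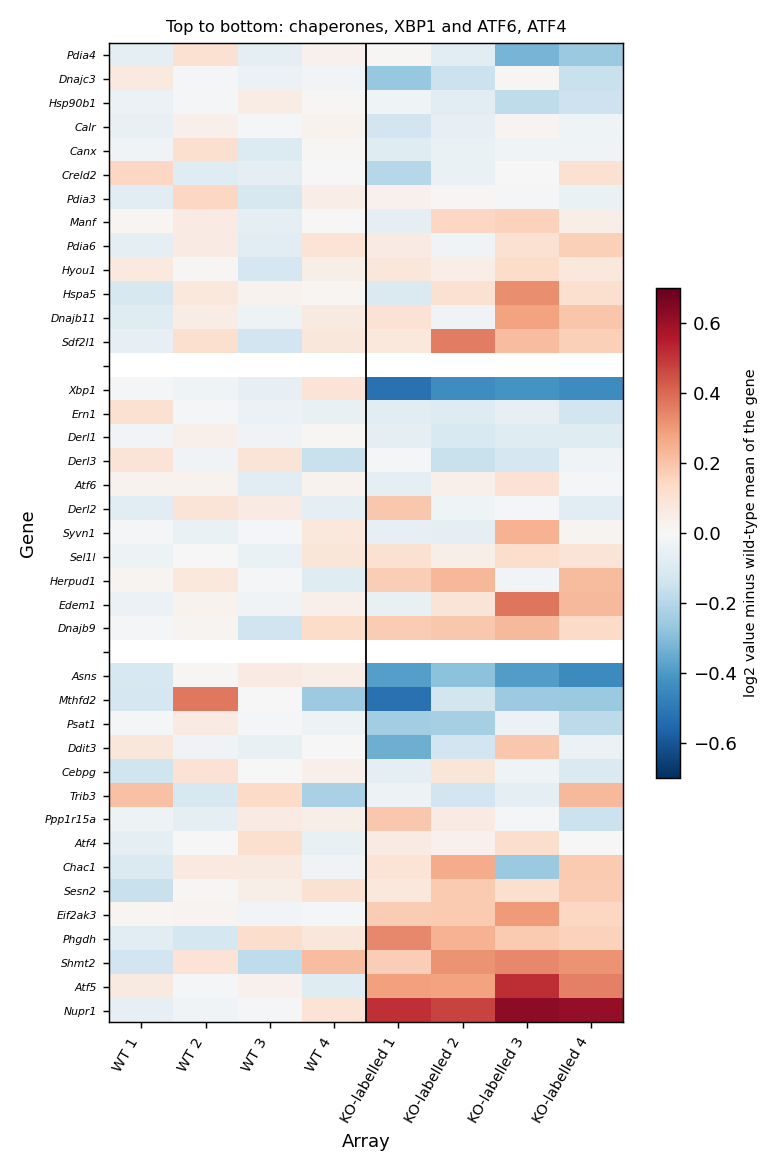
Each member (rows, in 3 blocks for the branches) in each array (columns), coloured by its log2 value minus the wild-type mean of that gene; WT is wild type and KO-labelled the knockout-labelled group. Xbp1 and Asns are blue and Nupr1 and Atf5 red in all 4 knockout-labelled arrays, while Edem1 and Pdia4 depart from 0 mainly in arrays 3 and 4.

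Several members differed between the knockout-labelled arrays along the split seen in the second principal component. The mean of arrays 3 and 4 minus that of arrays 1 and 2 was 0.31 log2 for Ddit3, 0.28 for Edem1, 0.22 for Hspa5, 0.20 for Dnajb11 and Syvn1, −0.20 for Ppp1r15a, −0.22 for Chac1 and −0.26 for Pdia4. For Xbp1 it was 0.05, for Asns −0.08, for Nupr1 0.13 and for Atf5 0.15, all smaller than their difference from wild type. The split was not particular to the members. By the same measure some cell type markers differed more, such as Jchain (−0.79), Ms4a1 (−0.63), Lum (0.43) and Emcn (0.38), chosen after their values were seen. With arrays 1 and 2 alone, 3 members were called (Xbp1, Asns and Nupr1), and with arrays 3 and 4 alone 6 were (Xbp1, Asns, Nupr1, Atf5, Edem1 and Pdia4).

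Other genes of the same pathways, 121 measured in 5 lists, gave 9 increases and 2 decreases (9.09%, against 7.5% of all genes), with a median log2 fold change of 0.046. This count was 4 with knockout-labelled arrays 1 and 2 alone and 7 when array 3 or 4 of either group was left out. Of 23 further folding, redox and glycoprotein control genes, 0 passed in limma, 2 higher and 3 lower at an unadjusted p under 0.05. The nearest were Sil1, a nucleotide exchange factor of BiP (−0.18, limma adjusted p = 0.0506), and Fkbp14, a prolyl isomerase that acts on collagen (0.27, limma adjusted p = 0.0507). Of 21 translocation and secretion genes 1 rose, the COPII coat gene Sec24d (log2 fold change 0.37, SE 0.066, limma adjusted p = 0.00863).

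Among 18 genes of ER-associated degradation 2 rose and 1 fell (16.7%, against 7.5% of all genes). The ubiquitin-conjugating enzyme gene Ube2j1 went from 9.05 ± 0.056 to 9.34 ± 0.055 log2 (SD, n = 4 each; limma adjusted p = 0.00968). The gene Ubxn8, whose product tethers the segregase p97 to the ER, was higher by 0.30 (limma adjusted p = 0.0344), and Ubxn4, another p97 adaptor, was lower (−0.20, limma adjusted p = 0.0463). The Ubxn4 call was lost with any array left out (adjusted p 0.0735 to 0.124) and the Ubxn8 call with 5 of the 8 arrays, each in turn (highest adjusted p 0.0942).

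Of 25 further sensors, factors and eIF2 regulators 2 rose and 1 fell (12%, against 7.5% of all genes). Creb3l1, an ER-bound transcription factor of the OASIS type that is cut like ATF6 and is known to drive collagen genes in bone, read 7.22, 7.35, 7.41 and 7.29 in wild type and 7.80, 7.83, 8.13 and 8.17 in the knockout-labelled arrays. No arrays overlapped, and arrays 3 and 4 were the highest (log2 fold change 0.66, SE 0.091, 1.58-fold, limma adjusted p = 0.00214). Its relative Creb3l2 was higher by 0.24 (limma adjusted p = 0.0303), a call lost in 6 of the 8 fits with 1 array left out (highest adjusted p 0.0832). Ppp1r15b, which encodes the constitutive eIF2 phosphatase subunit CReP, read 7.29, 7.15, 7.26 and 7.40 in wild type and 6.91, 6.98, 6.74 and 6.74 in the knockout-labelled arrays. The fall of 1.35-fold (log2 fold change −0.43, SE 0.075, limma adjusted p = 0.00704) was kept with each array left out. It did not pass with knockout-labelled arrays 1 and 2 alone (−0.33, limma adjusted p = 0.0656). These values are of the brighter of 2 rows of Ppp1r15b, and the other is not given here. The stress-induced counterpart Ppp1r15a did not pass, as given above.

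Of 34 further ATF4 targets 4 rose and 0 fell (11.8%, against 7.5% of all genes). Slc3a2, the heavy chain shared by several amino acid transporters, went from 10.38 ± 0.15 to 10.89 ± 0.12 log2 (SD, n = 4 each), 1.42-fold (limma adjusted p = 0.00583). Cth and Cbs, the enzymes that carry homocysteine sulphur to cysteine, were 1.37-fold and 1.29-fold higher (log2 fold changes 0.46 and 0.37, limma adjusted p = 0.00958 and 0.0104). Vldlr, a lipoprotein receptor, was higher by 0.40 (limma adjusted p = 0.0336), a call kept only without knockout-labelled array 2 and lost without any other array (highest adjusted p 0.0955). Fgf21, a hormone gene and ATF4 target, read 4.60 to 4.80 in wild type and 4.52 to 4.69 in the knockout-labelled arrays (−0.09, limma adjusted p = 0.509).

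Neighbouring stress systems gave no calls, where 7.5% of all genes were called. Of 17 cytosolic heat shock genes and 14 mitochondrial chaperones and proteases, 0 passed in limma, with medians of −0.016 and −0.077. At an unadjusted limma p under 0.05, 2 heat shock genes were higher and 2 lower, and 1 mitochondrial gene was higher and 4 lower. Over all 19310 genes, 1967 were higher and 2249 lower by that measure. Of the mitochondrial genes 10 lay below 0. The groups did not overlap in 11.8% of the heat shock and 28.6% of the mitochondrial genes, against 15.5% of all genes. The closest to the threshold were the cytosolic co-chaperone Dnaja1 (−0.23, limma adjusted p = 0.0544) and the mitochondrial protease subunit Clpp (−0.20, limma adjusted p = 0.0517).

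**Figure D4:**
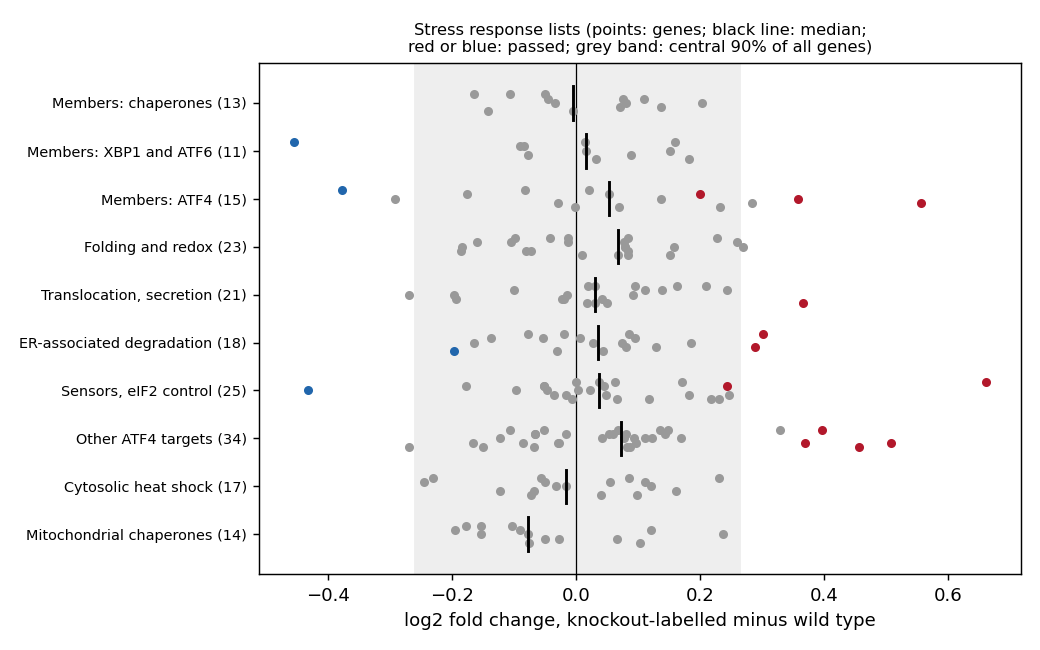
Log2 fold change (knockout-labelled minus wild type) of every measured gene of the 3 branches, the 5 related lists and 2 neighbouring stress systems, with the number of genes in brackets. Black lines are list medians, red and blue points passed, and the grey band holds the central 90% of all genes (−0.26 to 0.27); the largest points are Creb3l1 (0.66), Nupr1 (0.56) and Slc3a2 (0.51) on the right and Xbp1 (−0.45) on the left.

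Markers of other cell types moved with the groups in part. Of 9 fibroblast and progenitor markers 4 rose (44.4%, against 7.5% of all genes). These were Mfap5 (0.84), Col1a1 (0.71), Pi16 (0.40) and Col3a1 (0.27), while Dcn (−0.14) and Cd34 (−0.02) lay below 0. The mean of the 9, relative to wild type, lay between −0.21 and 0.13 in wild-type arrays and between 0.23 and 0.41 in knockout-labelled arrays. Of 10 endothelial markers 2 rose (20%), Cldn5 (0.99) and Pecam1 (0.20), with list means of −0.09 to 0.09 and 0.16 to 0.25. Cldn5 had by far the largest change of this list, and Kdr (−0.02), Tie1 (−0.01) and Flt1 (0.03) lay near 0. Of 10 markers of B and plasma cells, 0 passed in limma, where 7.5% of all genes did, and 0 had an unadjusted p under 0.05. Their list means overlapped between the groups and fell from array 1 to array 4 in both. They were 0.137, 0.098, −0.105 and −0.131 in wild type and 0.248, 0.0161, −0.0414 and −0.15 in the knockout-labelled arrays. Of 9 mesothelial markers Msln rose, but 8 lay below 0 (median log2 fold change −0.20), 4 of them with an unadjusted limma p under 0.05. Of 9 mature adipocyte markers Lep rose and 6 lay below 0 (median −0.069). Plin1, Lipe and Pparg were among the latter, did not pass and had groups that did not overlap. With Lep, the markers without overlap were 44.4% of the list, against 15.5% of all genes. The groups overlapped for Adipoq (−0.04), Fabp4 (−0.07), Slc2a4 (−0.15), Cidec (0.06) and Pnpla2 (0.03). Of 10 macrophage markers Cd14 fell and 7 lay above 0 (median 0.10). No row of a log2 table reads 0, so absence cannot be read from it. The part of these marker shifts in the changes of Xbp1, Asns, Nupr1, Atf5, Eif2ak3 and Creb3l1 was not tested.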

How the data were processed

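The deposited table holds log2 expression values for each array row. Its tool was affy, per the submitters' processing notes. How background, normalization, summarization and filters were set is not given in the sources used here. The log2 scale was inferred from the range of values, 2.09 to 13.4. If the authors' normalization drew array distributions together, it could hide a change common to most genes. Levels of different rows are not comparable, and the number of arrays limits the precision.

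Of 23346 rows, 20748 had exactly 1 gene symbol in the platform annotation and were fitted together with limma 3.58.1 in R 4.3.3 (lmFit, eBayes, 2 groups, no other term, two-sided, no filter on dim rows). P-values were Benjamini-Hochberg adjusted over these rows, and the calls used an adjusted p under 0.05. Calls over all genes were 751 higher and 697 lower (51.9% higher), or 902 and 537 (62.7%) with each array centred on its median, which moved the median of all genes only from −0.0061 to 0.016. The brightest row stood for a gene with several.

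Members and lists were chosen with earlier results of these data known. Values in every array are given for the called members, the sensors and main factors with Hspa5, and the 4 smallest p-values of each branch; from other lists, called genes (up to 4) and Fgf21. Genes outside this rule, such as Sil1, Fkbp14, Dnaja1 and Clpp, which were nearest the threshold, were chosen after their values were seen. Alternatives were quantile normalization, median centring, a fit without the dimmest 33.3% of rows or with rows of any annotation, trend and robust eBayes (statmod 1.5.0), weighted arrays, a block for the replicate number, each array left out in turn, subsets of the knockout-labelled arrays, an adjusted p under 0.10, a 1.5-fold minimum and, for genes with several rows, their mean. The fit was tested on simulated data. Promoter sequences are RefSeq's (GRCm38.p6).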

Additional observations from a re-analysis of the deposited data

Results flagged for a closer look

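In each of the 78 groups of 4 arrays (39 members in 2 genotypes), the most distant array was compared with the rest by the share of the range that lies between it and its neighbour. Atf6 in wild-type array 3, at 7.85 log2 with the next array at 7.94, and Shmt2 in knockout-labelled array 1, at 6.36 with the next at 6.50, stood apart by this measure. Chance alone flags about 5% of groups, so 2 of 78 is no more than that. Neither gene passed the test between the groups.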

How the results depend on the processing

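The calls of Xbp1, Asns and Nupr1 kept their direction and stayed past the threshold in every alternative but the 1.5-fold minimum, and that of Atf5 in all but this one and the fit of knockout-labelled arrays 1 and 2. Members called higher numbered 3, and 1 with knockout-labelled arrays 1 and 2 alone, 5 at an adjusted p under 0.10, 0 with a 1.5-fold minimum, and 2 to 3 with an array left out. Members called lower numbered 2, 0 with a 1.5-fold minimum and 2 to 3 with an array left out. The members' median log2 fold change of 0.022 was 0.0622 with knockout-labelled arrays 3 and 4 alone. Other pathway genes called numbered 11, and 4 with arrays 1 and 2 alone, 19 at an adjusted p under 0.10, 1 with a 1.5-fold minimum and 7 to 12 with an array left out. With an array left out or a subset of the knockout-labelled arrays, the sign turned for 10 members, Pdia3, Creld2, Atf6, Syvn1, Derl2, Ddit3, Cebpg, Ppp1r15a, Trib3 and Chac1, which had log2 fold changes from −0.0823 to 0.0703 and passed in none of these fits. Values are given for Atf6 (0.0146; −0.0141 to 0.0403 with an array left out, −0.0136 with arrays 1 and 2 alone) and Ddit3 (−0.0823; −0.173 to 0.00419 with an array left out, 0.0739 with arrays 3 and 4 alone). The sign of Nr1d1 turned with arrays 1 and 2 alone (0.0265). The cause was not tested. The labels do not say whether replicate numbers pair the samples. Correlations of same-numbered deviations were −0.0674 to 0.134, highest for replicate 2, and so few arrays cannot decide it. The replicate block gave 4 called members, without Eif2ak3 (limma adjusted p = 0.103), and 7 other pathway genes.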
